A study of Saccharomyces cerevisiae with 45 samples.

Results

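The 10 genes described here are the alcohol dehydrogenases ADH1 to ADH5 and the aldehyde dehydrogenases ALD2 to ALD6 of the budding yeast Saccharomyces cerevisiae, out of 5449 genes measured. They were taken by their symbols in the array's probe annotation, each gene had 1 probe set, and no gene was dropped for a low value. All arrays carried RNA from wild type cells of strain BY4147 with the genotype MATa; his3D1; leu2D0; met15D0; ura3D0, grown in YPD, a rich medium with glucose. Cells were kept at 25 °C or moved to a warmer water bath. The labels give 5 batch codes. Batch A863 held a 25 °C control and 37 °C for 1, 3, 5, 7, 10, 15 and 40 min, with 3 arrays a group, and batch A705 held 3 arrays at 37 °C for 80 min. Batch A927 held a control labelled 42 °C 0 min and described as cells at 25 °C, and 42 °C for 3, 5, 10 and 40 min, with 2 arrays a group. Batch P230 held 46 °C for 10 and 30 min, with 2 arrays a group and no control. The 4 arrays of batch A961, labelled 42 °C 1 and 80 min, were left out of every comparison, which leaves 41 arrays in 16 groups. No label says that replicates came from separate cultures, so the p-values reflect array-to-array spread alone, and that spread may be technical.

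Both enzyme families act on the route between pyruvate, acetaldehyde, ethanol and acetate. Pyruvate decarboxylase makes acetaldehyde. Alcohol dehydrogenases reduce it to ethanol and regenerate NAD+ during fermentation, or run in reverse when ethanol is the carbon source. Aldehyde dehydrogenases oxidise it to acetate, the precursor of acetyl-CoA, and yield NADH or NADPH. Adh1 is the main fermentative enzyme, Adh2 is repressed by glucose and consumes ethanol, Adh3 is mitochondrial, Adh4 is made under zinc limitation and Adh5 is a minor enzyme. Ald2 and Ald3 are cytosolic and known as stress-induced, Ald4 and Ald5 are mitochondrial, and Ald6 is the main cytosolic enzyme of acetate formation on glucose. ADH1 and ADH2, and likewise ALD2 and ALD3, encode closely similar proteins. Cross-hybridisation between the members of a pair was not tested, so their separate values are uncertain to that extent. ALD2 (YMR170C) and ALD3 (YMR169C) are neighbours on chromosome XIII in the reference annotation.

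Values are log2 intensities, and a change is a difference of group means on that scale. A change was called when it was at least 2-fold, a log2 change of 1, with an adjusted p in limma under 0.05. Arrays of a group outside batch A961 correlated at 0.992 to 0.999 over all genes. The deleted genes URA3, LEU2 and MET17 (the gene of the met15D0 allele) had highest values of 5.34, 5.93 and 5.44. HIS3 read 10.27 to 12.38, and since his3D1 is a partial deletion this probe set does not check it. Medians of the 5 mating type a markers over the 41 arrays were 11.35 to 13.45, against 4.47 to 8.82 for the 4 alpha markers. The sets met at 42 °C 40 min, where the a marker STE6 averaged 8.04, below the alpha markers SAG1 (9.09) and STE3 (8.41). The other a markers averaged 10.00 to 11.29 then. The ACT1 probe sets, read near the tail minus near the start of the transcript, differed by 0.525 ± 0.010 (SD, n = 3) in the A863 control. This difference, a sign of shortened RNA, was 0.917 ± 0.076 (n = 3) at 37 °C 80 min, 0.745 ± 0.086 (n = 2) in the A927 control and 1.33 ± 0.067 (n = 2) at 42 °C 40 min. Its part in the results at those times was not tested.

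**Figure D1:**
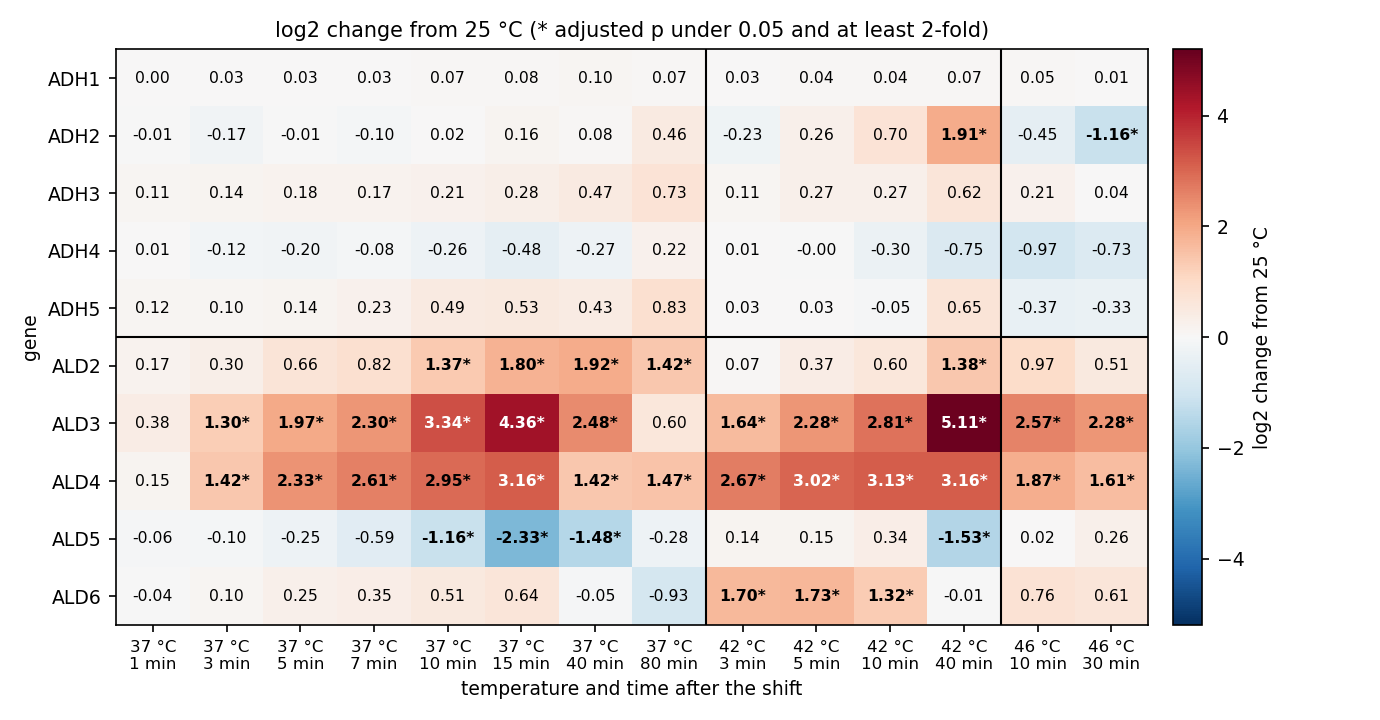
Heat map of log2 changes from 25 °C for the 10 genes (rows) after each temperature and time (columns), with values printed and an asterisk on each called change. Calls sit in the ALD rows, up to 5.11 for ALD3 at 42 °C 40 min and down to -2.33 for ALD5 at 37 °C 15 min, while ADH2 holds the calls among the ADH rows.

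Most calls fell on the aldehyde dehydrogenase genes. Of 70 combinations of an ALD gene with a heated group, 33 were called higher and 4 lower than 25 °C, and each of the 5 genes was called at least once. Of the 70 combinations for ADH genes, 1 was called higher and 1 lower, both for ADH2. Over the same 14 comparisons 17.5% of all gene values were called. The map of changes by temperature and time shows this split. Groups at one temperature share their control arrays, so these counts are a description.

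At 37 °C the number of the 10 genes called was 0 at 1 min, where 0.239% of all genes were called. It was 2 at 3 min against 3.25% of all genes, 2 at 5 min against 11.5%, and 2 at 7 min against 16%. It reached 4 at 10 min against 23.9%, 4 at 15 min against 29.6% and 4 at 40 min against 14.3%, and was 2 at 80 min against 7.96%. At 42 °C, 3 of the 10 were called at 3 min against 9.03% of all genes, 3 at 5 min against 15.3%, 3 at 10 min against 25.6% and 5 at 40 min against 45.6%. The share among the 10 genes was near that of all genes at 37 °C 5, 7 and 15 min and at 42 °C 10 and 40 min. It was above that share at the other times from 3 min on, but with only 10 genes a single call moves it much. All 37 °C times up to 40 min were read against the A863 control. The 80 min arrays came from batch A705 and were set against the same control, so batch and time cannot be told apart there.

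ALD3 had the widest span among the 10 genes, coming back toward the control at 37 °C and standing at its highest at the last time of 42 °C. Its level was 6.58, 6.71 and 6.87 in the 3 arrays of the A863 control and 8.78, 8.61 and 8.67 after 5 min at 37 °C. After 15 min it was 11.05, 11.13 and 11.07, and after 80 min 7.26, 7.34 and 7.37. Every 37 °C array lay above every control array, from the first minute on. The log2 change was 0.38 ± 0.12 (SE) at 1 min, which was not called, then 1.30 at 3 min, 1.97 at 5 min, 2.30 at 7 min and 3.34 at 10 min. It peaked at 4.36 ± 0.12 at 15 min, a 20.6-fold rise with a limma adjusted p of 3.94e-25. It was 2.48 at 40 min and 0.60 at 80 min, the latter not called. The step from 15 to 40 min fell by 1.89 ± 0.12 on the log2 scale.

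At 42 °C the ALD3 arrays read 7.00 and 6.91 in the A927 control, 8.67 and 8.53 at 3 min, 9.34 and 9.13 at 5 min, 9.84 and 9.69 at 10 min, and 12.03 and 12.09 at 40 min. No 2 of these 5 groups overlapped. The changes were 1.64 ± 0.15 at 3 min, 2.28 at 5 min, 2.81 at 10 min and 5.11 ± 0.15 at 40 min. The last was a 34.5-fold rise (limma adjusted p 9.19e-25). From 10 to 40 min ALD3 rose by a further 2.30 ± 0.15.

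ALD2, the neighbour of ALD3, rose later and less, and its rise at 37 °C lasted. The A863 control read 8.97, 8.92 and 8.95, the arrays at 10 min 10.41, 10.27 and 10.28, and those at 40 min 10.88, 10.87 and 10.86. Control and heated arrays did not overlap at any time at 37 °C. The change was 0.82 ± 0.06 at 7 min, below the 2-fold limit. It was 1.37 at 10 min, 1.80 at 15 min, 1.92 ± 0.06 at 40 min (3.79-fold, limma adjusted p 2.36e-23) and 1.42 at 80 min, all called. At 42 °C the control read 8.16 and 8.18 and the 40 min arrays 9.60 and 9.51. Only that time was called, at 1.38 ± 0.07, after 0.07 at 3 min, 0.37 at 5 min and 0.60 at 10 min. The A927 control was lower than the A863 control by 0.77 ± 0.06 for ALD2, so the 42 °C values depend on the control. Against the A863 control they were -0.70, -0.40, -0.17 and 0.61 at 3, 5, 10 and 40 min, with the sign turned at the first 3 times and none called.

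ALD4, which encodes the major mitochondrial aldehyde dehydrogenase, rose within 3 min at both temperatures. Its level was 11.02, 11.11 and 10.91 in the A863 control, 12.44, 12.45 and 12.39 after 3 min at 37 °C and 14.20, 14.16 and 14.17 after 15 min. At 40 min the arrays read 12.52, 12.41 and 12.37, and at 80 min 12.46, 12.56 and 12.43, so these groups overlapped each other while staying above the control. The changes were 0.15 ± 0.08 at 1 min, where arrays overlapped, then 1.42, 2.33, 2.61 and 2.95 at 3, 5, 7 and 10 min. They reached 3.16 ± 0.08 at 15 min (8.97-fold, limma adjusted p 4.57e-26) and were 1.42 at 40 min and 1.47 at 80 min. The step from 15 to 40 min fell by 1.75 ± 0.08.

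In the 42 °C series the ALD4 arrays read 10.05 and 9.91 in the control, 12.68 and 12.63 at 3 min, 13.07 and 12.94 at 5 min, 13.15 and 13.08 at 10 min, and 13.17 and 13.11 at 40 min. All heated arrays were above the control, and the 10 and 40 min groups overlapped. The changes were 2.67 ± 0.10, 3.02, 3.13 and 3.16 ± 0.10 at these times, the last 8.93-fold with a limma adjusted p of 7.62e-24. ALD4 held its level from 10 to 40 min at 42 °C, with a control that was itself lower than that of the 37 °C series.

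ALD5, the other mitochondrial gene of the family, was the ALD gene with called falls below the control of its own series. The A863 control arrays read 12.12, 12.09 and 12.08, the 15 min arrays 9.89, 9.56 and 9.85, and the 80 min arrays 11.85, 11.81 and 11.80. The 15 min arrays were the lowest of the 37 °C series, with no overlap with any other time. ALD5 fell by 1.16 ± 0.07 at 10 min, by 2.33 ± 0.07 at 15 min, to 0.199 of the control (limma adjusted p 8.44e-25), and by 1.48 at 40 min. The changes at 1, 3, 5 and 7 min were -0.06, -0.10, -0.25 and -0.59, and that at 80 min was -0.28, none of them called. At 42 °C the arrays read 12.49 and 12.42 in the control, 12.80 and 12.78 at 10 min, and 10.94 and 10.91 at 40 min. The first 3 times stood at 0.14, 0.15 and 0.34 ± 0.08, not called, before a fall by 1.53 ± 0.08 at 40 min (limma adjusted p 9.80e-18). Between 10 and 40 min the level fell by 1.87 ± 0.08.

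**Figure D2:**
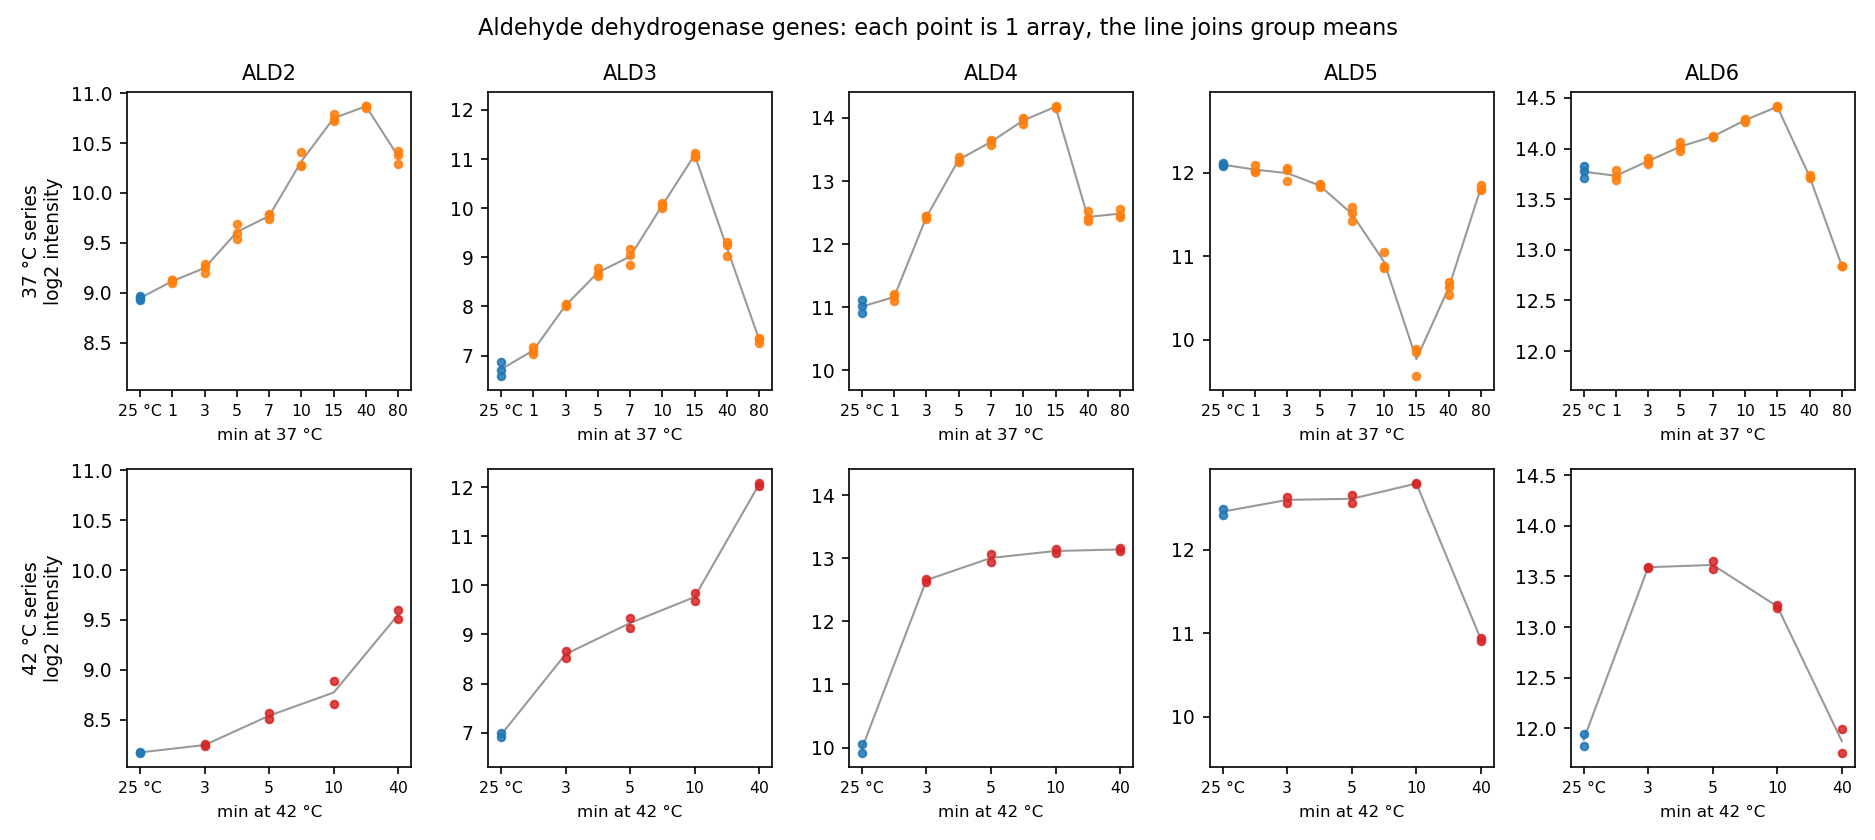
Log2 intensity of the 5 ALD genes on every array at 37 °C (upper row) and 42 °C (lower row) against time, with the 25 °C control of the same plot at the left, and lines through group means. Both rows of a gene share an axis, so the low ALD6 control of the 42 °C series (11.83 and 11.95) can be set against that of the 37 °C series (13.71 to 13.83).

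ALD6 had called changes that turned direction with the choice of control. Its arrays read 13.83, 13.78 and 13.71 in the A863 control but 11.83 and 11.95 in the A927 control, a difference between the 25 °C groups of -1.88 ± 0.05 (limma adjusted p 5.52e-24). Between these controls 2 of the 10 genes were called, ALD6 and ALD4 (-1.03 ± 0.09), against 3.51% of all genes. The ALD4 call between controls ended without A863 replicate 2 (-0.98) or A927 replicate 2 (-0.96).

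Within the 37 °C series ALD6 read 14.41, 14.41 and 14.42 at 15 min, above all control arrays, and 12.84 on each of the 3 arrays at 80 min, below them. The changes were 0.64 ± 0.05 at 15 min, -0.05 at 40 min and -0.93 ± 0.05 at 80 min, and no time was called. Within the 42 °C series the arrays read 13.60 and 13.58 at 3 min, 13.65 and 13.57 at 5 min, 13.22 and 13.19 at 10 min and 11.75 and 11.99 at 40 min. The first 3 times were above the control and the 40 min arrays overlapped it. The called rises were 1.70 ± 0.06 at 3 min, 1.73 ± 0.06 at 5 min (3.31-fold, limma adjusted p 1.95e-22) and 1.32 at 10 min, followed by -0.01 at 40 min. The step from 10 to 40 min, which uses no control, fell by 1.33 ± 0.06. Read against the A863 control instead, the changes at 42 °C 3, 5 and 10 min were -0.18, -0.16 and -0.57, so the direction turned, and that at 40 min was -1.90, a called fall. Read against the A927 control, the 37 °C 80 min value turned from -0.93 to 0.95. Against that control ALD6 had called rises at every 37 °C time from 1 to 40 min. They were 1.84, 1.99, 2.13, 2.23, 2.39, 2.53 and 1.84 at 1, 3, 5, 7, 10, 15 and 40 min.

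Among the alcohol dehydrogenases, ADH2 had called changes, in opposite directions at 42 and 46 °C. Its arrays read 8.10 and 8.14 in the A927 control, 7.88 and 7.89 at 3 min, 8.36 and 8.41 at 5 min, 8.75 and 8.89 at 10 min and 10.09 and 9.97 at 40 min. These 5 groups did not overlap each other. The changes were -0.23 ± 0.10, 0.26 and 0.70, none called, and then 1.91 ± 0.10 at 40 min (3.76-fold, limma adjusted p 1.49e-17). Against the A863 control the change at 10 min was 1.02, a called rise. The step from 10 to 40 min was a rise of 1.21 ± 0.10. At 37 °C the 24 arrays lay between 7.52 and 8.29 around a control of 7.84, 7.80 and 7.78. The largest change there was 0.46 ± 0.08 at 80 min, where the arrays read 8.26, 8.29 and 8.23, and no time was called.

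**Figure D3:**
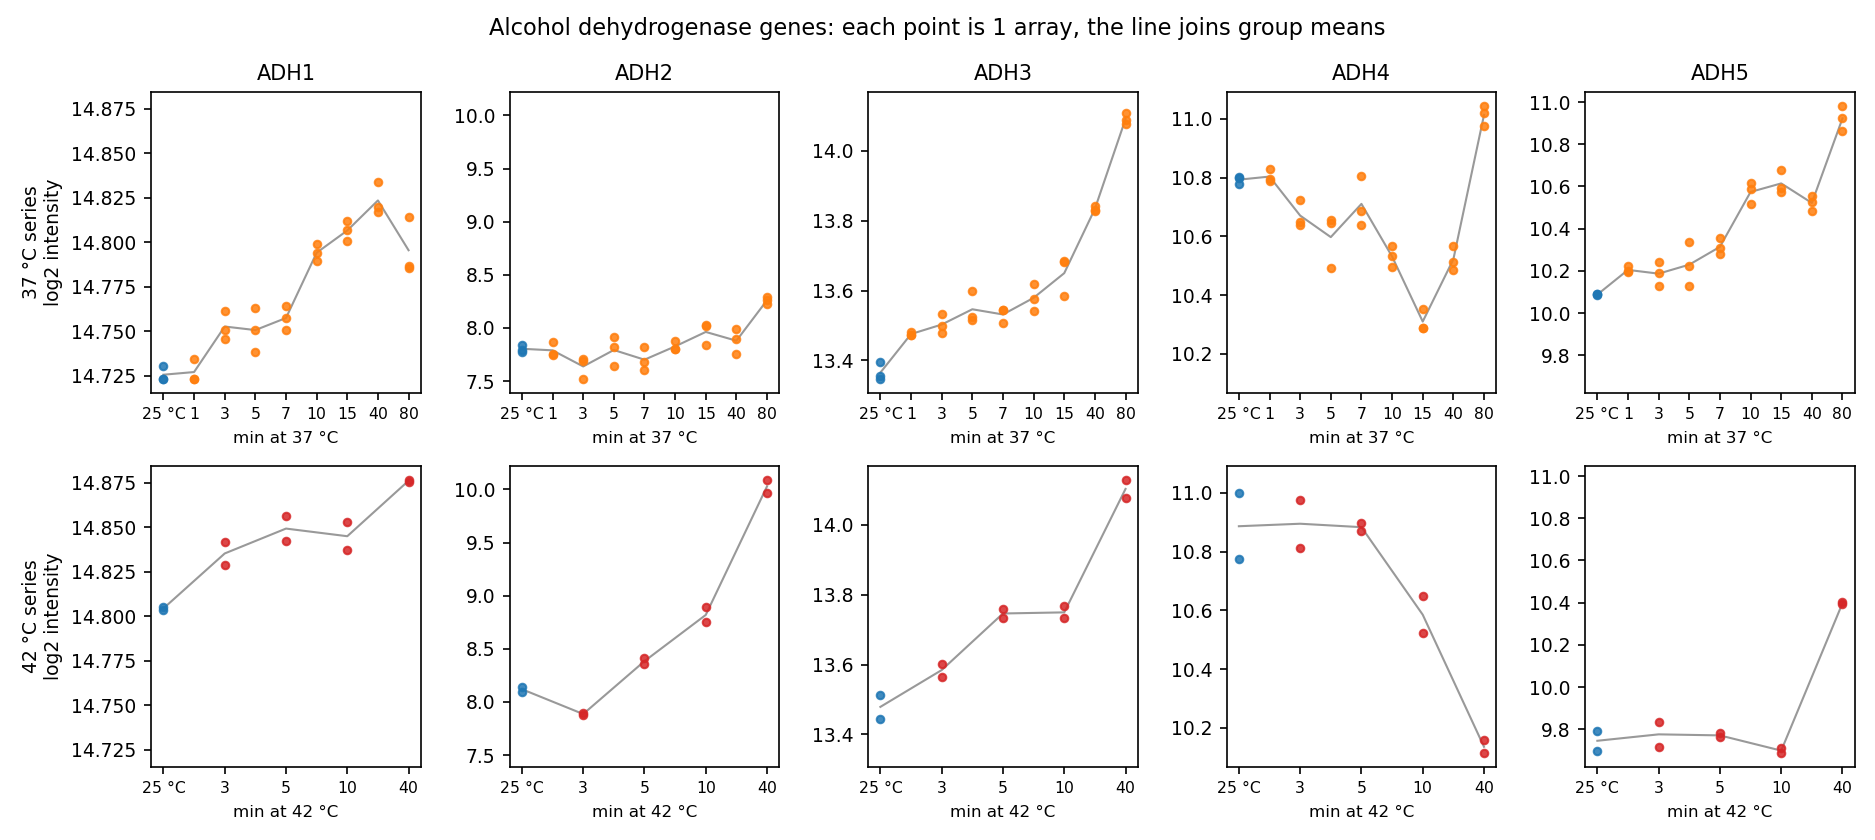
Log2 intensity of the 5 ADH genes on every array at 37 °C (upper row) and 42 °C (lower row) against time, with lines through group means. Each gene has its own axis, and that of ADH1 spans only about the 0.15 log2 units between its lowest array (14.72) and its highest (14.88).

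ADH1, the main fermentative gene, ranged from 14.72 to 14.88 over the 41 arrays, a span of 0.15. Its largest change was 0.10 ± 0.03 at 37 °C 40 min, where the arrays read 14.82, 14.83 and 14.82 against 14.72, 14.72 and 14.73 in the control. ADH1 was within 0.333 of the brightest probe set on each array, so the top of the scale bounds how much of a rise could have been read. ADH3, the mitochondrial gene, read 13.35, 13.35 and 13.39 in the A863 control and 14.11, 14.09 and 14.08 at 37 °C 80 min. That change was 0.73 ± 0.05 (limma adjusted p 5.83e-15), and the one at 42 °C 40 min was 0.62 ± 0.06. Both were larger than the spread between arrays and under 2-fold.

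All ADH4 arrays lay below those of the control at 37 °C 3, 5, 10, 15 and 40 min and at 42 °C 10 and 40 min. Its arrays read 10.80, 10.78 and 10.80 in the A863 control, 10.29, 10.35 and 10.29 at 15 min and 11.04, 11.02 and 10.98 at 80 min. The changes were -0.48 ± 0.06 at 15 min and 0.22 at 80 min. The 42 °C control averaged 10.89 ± 0.16 (SD, n = 2) and the 40 min arrays read 10.11 and 10.16, a change of -0.75 ± 0.08 (limma adjusted p 1.51e-10). At 42 °C 3 and 5 min the ADH4 arrays overlapped the control.

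ADH5 read 10.08, 10.09 and 10.09 in the A863 control and 10.92, 10.98 and 10.86 at 37 °C 80 min, a change of 0.83 ± 0.05 (limma adjusted p 1.20e-14). At 42 °C it stayed between 9.69 and 9.83 through 10 min and read 10.40 and 10.39 at 40 min, a change of 0.65 ± 0.07. None of the ADH4 or ADH5 changes at 37 or 42 °C reached 2-fold against these controls. Against the A927 control the ADH5 change at 37 °C 80 min was 1.18, a called rise. With both controls as 1 group and the batch as a random block that change was 1.00, also called.

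The difference between temperatures was tested directly by subtracting the 37 °C change from the 42 °C change at each shared time, every change being taken from the control of its batch. At 3 min 2 of the 10 genes were called against 2.66% of all genes, at 5 min 1 against 3.36%, at 10 min 1 against 13.9% and at 40 min 3 against 39.3%. All these differences were higher at 42 °C. Over all genes 131 were called higher and 14 lower at 3 min, and 159 and 24 at 5 min. They were 488 and 271 at 10 min and 1073 and 1069 at 40 min. For ALD4 it was 1.25 ± 0.13 at 3 min, 0.70 at 5 min, 0.18 at 10 min and 1.74 ± 0.13 at 40 min, called at the first and last of these. For ALD3 the difference was 2.63 ± 0.19 at 40 min (limma adjusted p 5.94e-14), after 0.34, 0.31 and -0.53 at the earlier times. At 40 min ADH2 differed by 1.83 ± 0.13 (limma adjusted p 5.51e-14).

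ALD5 differed by 1.50 ± 0.10 at 10 min (limma adjusted p 1.72e-13), when it had fallen at 37 °C and stood at 0.34 at 42 °C. By 40 min its difference was -0.06, with a 95% interval of -0.27 to 0.16. ALD2 had negative differences at all 4 times, from -0.77 ± 0.09 at 10 min to -0.23 at 3 min, none of them called. Compared level with level, with no control, ALD2 was lower at 42 than at 37 °C at 3, 5, 10 and 40 min, each time by a called difference, which was -1.07, -1.55 and -1.31 at the last 3 of these times. ALD6 differed by 1.60 ± 0.07 at 3 min and 1.48 ± 0.07 at 5 min, both called, and by 0.81 at 10 min. These ALD6 values carry the gap between the 2 controls. In the same comparison of levels ALD6 was lower at 42 than at 37 °C, by differences of -0.29, -0.41, -1.08 and -1.85 at 3, 5, 10 and 40 min. The ALD4 differences in levels were 0.22, -0.33, -0.85 and 0.71 at these times, none of them called.

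**Figure D4:**
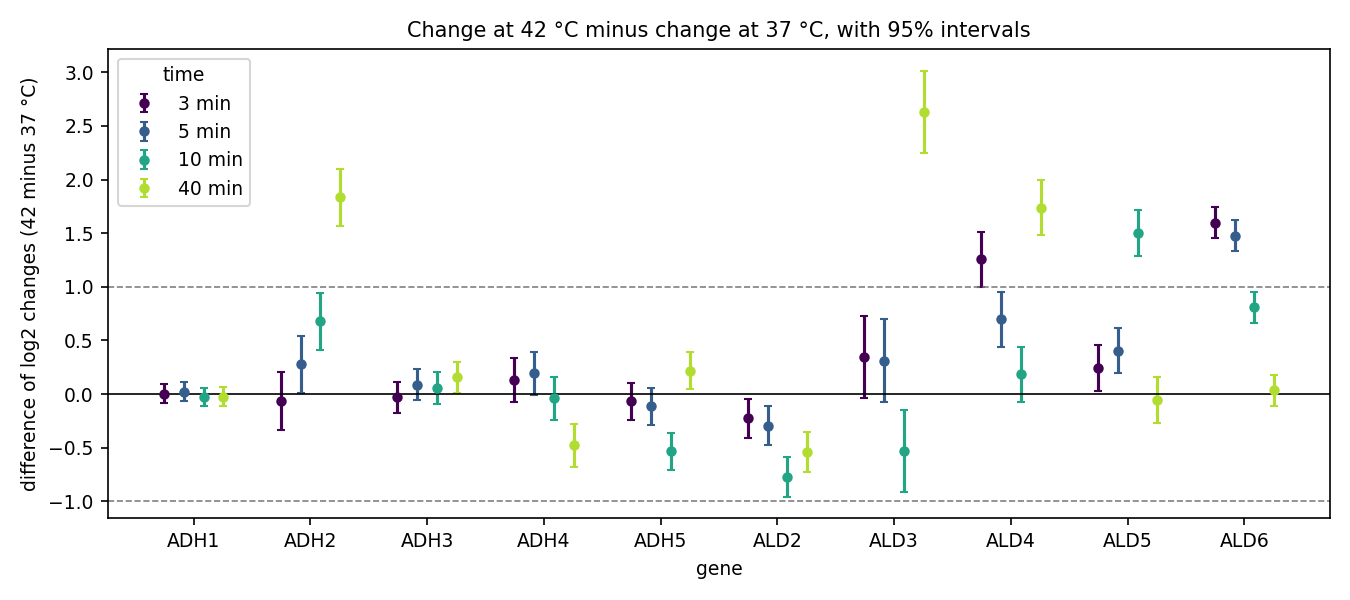
The 42 °C change less the 37 °C change for each gene at 3, 5, 10 and 40 min, in log2 units, with 95% intervals from the limma fit and dashed lines at the 2-fold limit. The 40 min points of ALD3 (2.63), ADH2 (1.83) and ALD4 (1.74) and the early points of ALD6 (1.60 and 1.48) lie above the upper line.

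The arrays at 46 °C were compared with the mean of both 25 °C controls after all arrays were quantile-normalised together, because batch P230 had lower array medians (9.85 to 9.86) than the others (10.12 to 10.26). Batch and temperature cannot be told apart in this comparison. At 10 min 2 of the 10 genes were called against 19.7% of all genes, and at 30 min 3 against 23.3%. ALD3 read 9.83 and 9.41 at 10 min and 9.72 and 8.96 at 30 min on the rescaled log2 scale, above all 5 control arrays, which spanned 6.69 to 7.31. Its changes were 2.57 ± 0.12 and 2.28 ± 0.12 (limma adjusted p 3.76e-17). ALD4 read 12.59 and 12.11 at 10 min and 12.19 and 11.99 at 30 min, again above all controls, which reached 11.08. It rose by 1.87 ± 0.08 and 1.61 ± 0.08.

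ADH2 fell by 1.16 ± 0.09 at 46 °C 30 min, when its rescaled arrays read 7.16 and 6.67 against 7.74 to 7.82 in the A863 control and 8.35 and 8.39 in the A927 control. This call ended against the A863 control alone (-0.86), with arrays centred on their medians (-0.74), and without 46 °C 30 min replicate 2 (-0.91). ADH4 stood at -0.97 ± 0.06 and -0.73 at 10 and 30 min and ALD2 at 0.97 ± 0.06 and 0.51, just under or below the limit. Without 46 °C 10 min replicate 2 both passed it at 10 min, at -1.10 and 1.06, as did ADH4 without A927 replicate 2, at -1.02. Both also passed it at 10 min with arrays centred on their medians (-1.01 and 1.07) and against the A927 control alone (-1.01 and 1.20). On the values as deposited ADH4 was called at 10 and 30 min, at -1.35 and -1.10. ALD6 read 13.58 and 13.54 at 10 min and 13.38 and 13.44 at 30 min, between the A927 control (11.75 and 11.89) and the A863 control (13.71 to 13.84). ALD5, at 0.02 and 0.26, and ADH1, at 0.05 and 0.01, were not called. ADH5 read 9.43 and 9.63 at 10 min and 9.48 and 9.65 at 30 min, below all control arrays (9.71 to 10.05). ADH3 read 13.59 and 13.59 at 10 min, above all control arrays (13.33 to 13.45), and overlapped them at 30 min. Neither ADH5 nor ADH3 was called.

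Between 10 and 30 min at 46 °C, within batch P230, 0 of the 10 genes were called by limma, against 0.239% of all genes, while 7 of the 10 had an unadjusted p under 0.05, as did 52.7% of all genes. ADH2 changed most, at -0.61 ± 0.10, followed by ALD2 at -0.47 ± 0.07. In the other steps within a series, 2 of the 10 genes were called from 15 to 40 min at 37 °C, against 16.1% of all genes, and 4 from 10 to 40 min at 42 °C, against 23.6%.

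**Figure D5:**
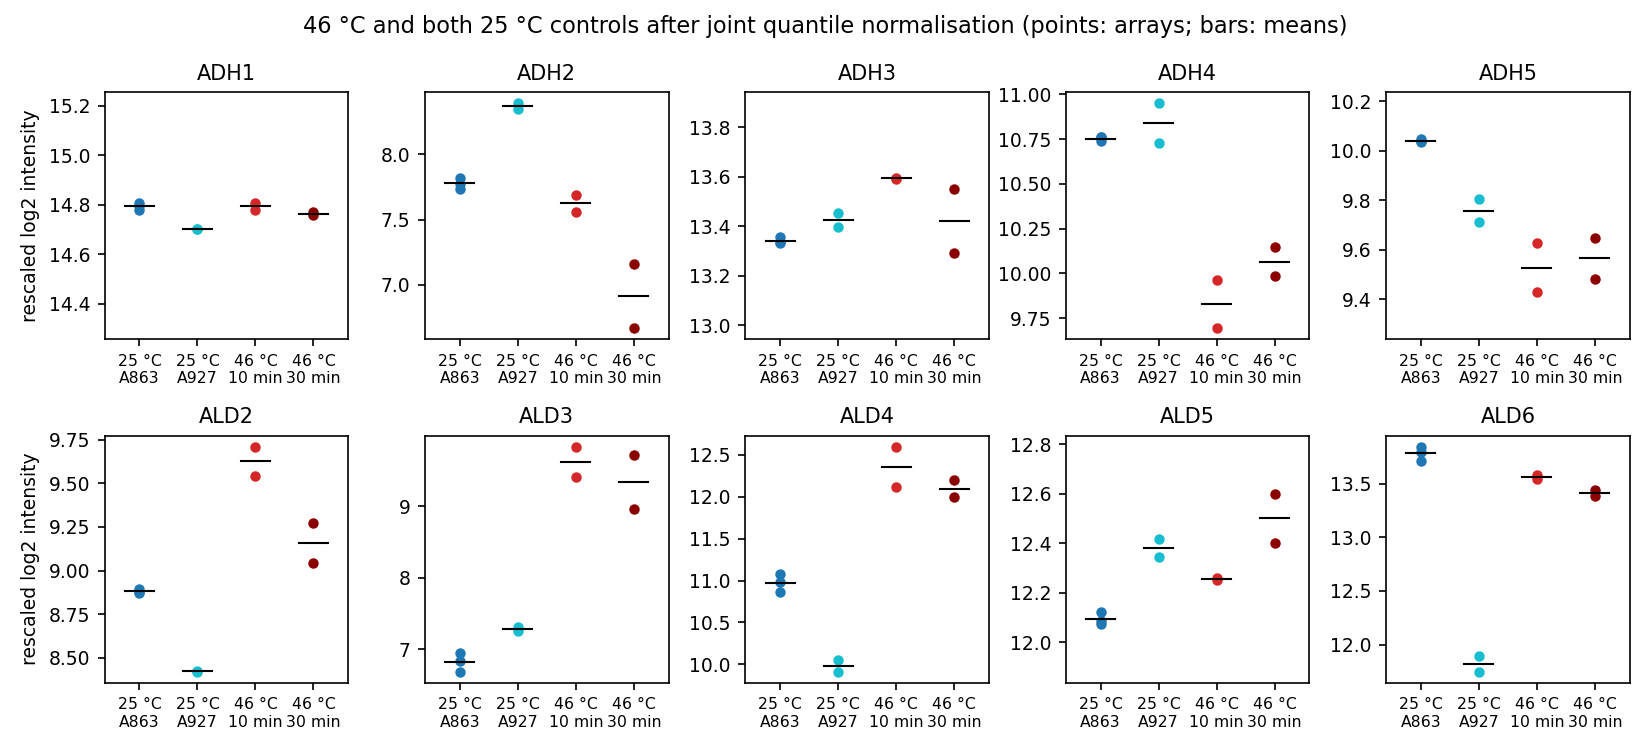
Rescaled log2 intensity of each gene on the 25 °C control arrays of batches A863 and A927 and on the 46 °C arrays at 10 and 30 min, with bars at group means. ALD2, ALD3 and ALD4 at 46 °C lie above both controls at both times, and ADH3 does so at 10 min. ADH2 (7.16 and 6.67 at 30 min), ADH4 and ADH5 lie below both controls at both times, and ALD6 lies between them.

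Genes around these enzymes were described by lists and their counts, beside the median of all genes, which was 0.06 at 37 °C 15 min and 0.01 at 42 °C 40 min, and beside the 29.6% and 45.6% of all genes called then. Of 7 genes for pyruvate decarboxylase and acetyl-CoA synthesis, 2 rose and 0 fell at 37 °C 15 min (list median -0.09). The rises were in ACH1 (1.72), a mitochondrial CoA transferase, and ACS1 (1.20), the acetyl-CoA synthetase repressed by glucose. At 42 °C 40 min ACH1 rose by 1.75 and ACS2, the other acetyl-CoA synthetase, fell by 1.59 (list median -0.05). PDC1, the main pyruvate decarboxylase, stood at 0.00 and -0.24 in these comparisons.

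Of 14 other alcohol dehydrogenases and aldehyde reductases, 4 rose and 0 fell at 37 °C 15 min, with a list median of 0.50, a share called near that of all genes. They were BDH2 (4.30) and BDH1 (3.03), the latter a butanediol dehydrogenase, GCY1 (3.59), a glycerol dehydrogenase, and GRE3 (3.46), an aldose reductase. At 42 °C 40 min 8 rose and 1 fell, with a list median of 1.59. The 4 largest rises were in GRE3 (4.20), BDH1 (3.52), BDH2 (3.21) and AAD10 (2.85), and the 1 fall was in AAD3 (-1.74). Of 4 other aldehyde dehydrogenases, 2 rose at 37 °C 15 min, HFD1 (1.94), which oxidises long-chain aldehydes, and UGA2 (2.30), succinate semialdehyde dehydrogenase. Both were also called at 42 °C 40 min, at 2.13 and 2.29, with PUT2 of proline use at 1.27.

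ADH2 is a known target of the activator Adr1, so 16 genes of glucose repression were counted. At 37 °C 15 min 8 rose and 1 fell (list median 0.95), and at 42 °C 40 min 8 rose and 0 fell (list median 1.17), the latter a share near that of all genes. The activator genes ADR1 and CAT8 rose by 2.23 and 2.85 at 37 °C 15 min and by 3.08 and 2.80 at 42 °C 40 min. CYB2, lactate dehydrogenase, rose by 4.34 and 4.97. CTA1, the peroxisomal catalase, fell by 1.12 at 37 °C and rose by 2.01 at 42 °C. At 46 °C 30 min ADR1 was called at 4.01, while ADH2 had a called fall of 1.16 that several alternatives ended. Batch and temperature cannot be told apart in either value, and a link between these genes was not tested.

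ADH4 is a known target of the zinc regulator Zap1, and of 10 zinc-responsive genes 0 rose and 6 fell at 37 °C 15 min (list median -1.16). The zinc transporter gene ZRT1 fell by 1.41 then and by 1.76 at 42 °C 40 min, when 2 genes of the list rose and 3 fell (list median -0.51). All 6 general stress genes rose at 37 °C 15 min (list median 6.17) and at 42 °C 40 min (7.03), among them HSP12 by 6.95 and 7.06 and CTT1, the cytosolic catalase, by 5.39 and 6.83.

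Likeness was measured as the Pearson correlation of log2 changes over 12 conditions, 8 at 37 °C and 4 at 42 °C, whose points share control arrays, so it is a description. The 3 genes most like ALD3 were HUL5 (0.991), COQ4 (0.984) and DCS1 (0.983), and those most like ALD4 were SPI1 (0.983), HXT7 (0.981) and EMI2 (0.971). ALD2 was closest to ECM4 (0.974), CIR1 and MSY1, and ALD5 to FAA4 (0.974), AGP1 and PLB2. For ALD6 the nearest were TEC1 (0.911), MPC3 (0.902) and MSH5 (0.845), the lowest values among the 10 genes. ADH2 was nearest to MIM2 (0.989), HUG1 and GAL10, and ADH1 to PST2 (0.951), PYC1 and ECM15. The other 3 were nearest to BNA5 (ADH3, 0.947), PHO3 (ADH4, 0.931) and JAC1 (ADH5, 0.958). Over single arrays of batch A863, none of these 3 nearest genes came back for any of the 10. Among the members, the highest correlation was that of ADH1 and ALD2 (0.92), followed by ADH5 and ALD2 (0.82) and ADH3 and ADH5 (0.81). ALD3 and ALD4 correlated at 0.761, the pair ALD2 and ALD3 at 0.551, ALD2 and ALD5 at -0.853, and ADH4 and ALD3 at -0.915.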

How the data were processed

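The deposited values are log2 intensities, made by the authors with RMA and affy, per the submitters' processing notes. Tool versions and a build were not given in the sources used here. This method brings arrays to a common distribution, so it removes any overall change of messenger RNA per cell. Per the labels' protocols, 150 ng of total RNA was labelled with biotin for 3' arrays. The values showed 3 sets of arrays with separate distributions, with array medians of 10.20 to 10.26 (A863 and A705), 10.12 to 10.20 (A927 and A961) and 9.85 to 9.86 (P230). The number of arrays limits the precision.

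Of 5900 probe sets, 5498 had 1 gene symbol and 0 had several in the platform annotation, 137 were controls and 265 others had none. All 5498 matched the R64 reference table, which updated 12 symbols. The brightest probe set stood for each of 47 genes with several, leaving 5449 genes. A mean per group was fitted to 41 arrays in R 4.3.3 by lmFit and eBayes of limma 3.58.1. Residual degrees of freedom were 25, and two-sided p-values were adjusted by Benjamini-Hochberg over 5449 genes. SE and intervals use the moderated variance. For 46 °C against 25 °C the arrays were first quantile-normalised together. The arrays labelled 42 °C 1 and 80 min were left out by the rule that chose the members, and replicates of a label there correlated at 0.612 to 0.620. On simulated data for 37 °C 10 min, 100 of 100 genes changed by 1.5 on the log2 scale were recovered among 5449, with 0 false calls. The simulated arrays had independent noise and no batch differences, so this checks the procedure and cannot measure false calls that come from batch. Between the 2 unheated controls in the data, 3.51% of all genes were called.

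The members and lists were chosen with earlier results of these data known. Named genes are all 10 members, the 3 genes with the highest correlation to each that themselves changed by at least 1, up to 4 called genes of a list and any gene of a list of 12 or fewer. CTA1 and AAD3 were named after their values were seen. AAD15 was not analysed here. Alternatives covered the arrays fitted, scaling, an intensity trend, a filter on dim genes, the replicate block, the minimum fold, the control, array weights, the batch as a random block and each array left out.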

Additional observations from a re-analysis of the deposited data

Results flagged for a closer look

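The test of the difference between temperatures marked 5 genes, each with a more positive change from its own control at 42 than at 37 °C. Of all genes, 2.66%, 3.36%, 13.9% and 39.3% were called at 3, 5, 10 and 40 min. Those calls were also mostly higher at 42 °C at 3, 5 and 10 min. ALD4 differed by 1.25 at 3 min and 1.74 at 40 min, and ALD6 by 1.60 at 3 min and 1.48 at 5 min. Compared as levels, with no control, ALD6 instead stood at -0.29 and -0.41, and ALD4 at 0.22 and 0.71. ALD5 differed by 1.50 at 10 min, ADH2 by 1.83 at 40 min and ALD3 by 2.63 at 40 min.

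The arrays of batch A961, labelled 42 °C 1 and 80 min, entered no comparison. Each of these arrays correlated best with an array of the other label (0.998). Replicate 2 labelled 1 min and replicate 1 labelled 80 min read over 1 log2 unit above the highest 25 °C array for 5 of the 10 genes, as they did for 22.2% of all genes. On these 2 arrays ADH5 read 12.45 and 12.54, above the highest of the other 41 arrays (10.98), although no main comparison called it. ADH2 read 10.02 and 9.81, ALD2 10.10 and 10.17, ALD3 11.22 and 11.40, and ALD4 13.00 and 12.91 on them. ALD5 (9.72 and 9.70) and ALD6 (10.42 and 10.46) read over 1 log2 unit below the lowest 25 °C array, as did 21% of all genes, and ALD6 was below the lowest of the other 41 arrays (11.75). The time behind these levels cannot be taken from the labels.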

How the results depend on the processing

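With no minimum fold the number of the 10 genes called was 2, 4, 8, 7, 9, 9, 8 and 10 at 37 °C 1 to 80 min, 6, 8 and 9 at 42 °C 5, 10 and 40 min, and 4, 6 and 7 for the difference between temperatures at 5, 10 and 40 min. It was 8 and 8 at 46 °C 10 and 30 min, 7 between these, 6 and 8 for the steps to 40 min at 37 and 42 °C, and 7 between controls. Without the minimum fold 14.1% (37 °C 1 min) to 87% (42 °C 40 min) of all genes were called, and most of these member counts were near that share. At a log2 change of at least 0.5 the member count was 4 and 6 at 37 °C 7 and 80 min and 5 and 8 at 42 °C 10 and 40 min. It was 2 and 6 for the difference at 5 and 10 min, 5 and 6 at 46 °C 10 and 30 min, 1 between these and 4 for the 37 °C step. Shares of all genes under this rule were 35.6% and 29.4% at those 37 °C times and 49.9% and 68.3% at those 42 °C times. They were 14.6% and 36.9% for the difference, 45.3% and 51.1% at 46 °C, 9.47% between these and 37.8% for the 37 °C step. Most of these member counts were near that share, with those at 37 °C 80 min and for the difference at 10 min above it. With all 45 arrays the number called of the 10 genes was 1 at 37 °C 3 min, where ALD3 lost its call. ALD3 lost its call at 42 °C 3 min as well. The member count was 0 for the difference at 3, 5 and 10 min, and 1 between controls. Of all 5449 genes, 109 were then called at 37 °C 3 min, and 39, 71 and 449 for these differences.

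With the control of the other batch the number called of the 10 genes was 2, 4, 4 and 4 at 37 °C 1, 3, 5 and 7 min. Of all 5449 genes, 217, 494 and 978 were called against that control at 1, 3 and 5 min. With levels compared directly the member count was 1 and 3 for the difference at 3 and 10 min. ALD6 then reversed, to 1.84 at 37 °C 1 min and 1.84 at 40 min, to -0.18, -0.16 and -0.57 at 42 °C 3, 5 and 10 min, and to -0.29, -0.41, -1.08 and -1.85 for the difference. At 46 °C 10 min the member count was 4 with arrays centred on their medians and 4 with the replicate block. With the A927 control alone it was 5 there. Between controls the member count was 1 after joint quantile normalisation. In the main comparisons 16% of all genes were called at 37 °C 7 min and 19.7% at 46 °C 10 min. The main share was 2.66% and 13.9% for the difference at 3 and 10 min, and 3.51% between controls. Shares under the alternatives are not given for these comparisons, so their member counts cannot be set against them. Leaving out each array gave 2 to 4 at 46 °C 10 min, 2 to 3 at 46 °C 30 min and 1 to 2 between controls, and moved no other count of members.

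The replicate numbers were not shown to pair arrays (median correlation of deviations 0.044 in A863, 0.002 in A927, and 0.582 in the single pair of groups of P230), and the block changed 3 member calls, ADH4 (-1.06) and ALD2 (1.05) at 46 °C 10 min and ADH2 (-0.98) at 46 °C 30 min, all in P230. Of the 3 most similar genes, 0 were shared over single arrays of batch A863 for all 10 members. With Spearman's correlation 0 were shared for ADH2, ADH4, ALD4 and ALD6 and 1 for ADH3, ADH5, ALD2 and ALD5, and without 37 °C 80 min 0 for ADH4 and 1 for ADH2, ADH3 and ADH5. The causes were not tested. Counts over all genes moved by over 1.5 times with the minimum fold (13 to 770 at 37 °C 1 min without it), with all 45 arrays (145 to 39 for the difference at 3 min) and with the other control (13 to 217 at 37 °C 1 min). Between 46 °C 10 and 30 min, 13 genes became 0 with only those arrays, 6 with all 45 arrays and 4 to 68 with 1 array left out. Near the top of the scale a rise of ADH1 is hard to read.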
